A study of Mus musculus with 20 samples.

Results

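The cytosolic ribosome of cultured mouse muscle cells was followed through the messenger RNAs of its proteins. The genes are the rows of the count table whose symbol is Rpl, Rps or Rplp, then a number and at most one of the letters a, x or l, which gave 79 of 26722 genes. Of these, 46 encode or are named after proteins of the large subunit, 30 of the small subunit and 3 of the P stalk. The cells were C2C12, an established line of mouse myoblasts that fuse into myotubes, and 20 libraries of their total RNA cover 5 treatments with 4 biological replicates each. All cells were differentiated for 5 days in 2% horse serum and then treated for 16 h. The control received b12, a human IgG4 that is the negative control antibody, at 7.7 nM, and the second treatment was bivalent 13-3B5, a human IgG4 that activates the muscle-specific kinase MuSK, at 7.7 nM. The other 3 treatments received 0.1 nM neural agrin, the natural activator of MuSK, with 7.7 nM b12 (called agrin here), 7.7 nM 13-3B5xb12 or 7.7 nM 11-3F6xb12, which are monovalent antibodies that inhibit MuSK. The model is a single cell line without nerve, so agrin and the antibodies acted on muscle cells alone.

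A ribosome holds one copy of most of its proteins, and cells make these proteins in matched amounts. Ribosomal protein messages are known for a short run of pyrimidines at their very start, the 5′ terminal oligopyrimidine (TOP) tract, through which the kinase mTORC1 and the RNA-binding protein LARP1 set how much of the message is translated. Growth factor receptors that signal to mTORC1 are known to act on ribosome production in muscle, and MYC drives transcription of the same genes. RNA sequencing of total RNA measures the level of the messages and not their translation. In a culture, fewer cells of a type and less RNA per cell cannot be told apart.

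The start of the message is what the group is best known for, so it is shown for 10 of the 14 members whose annotated start carries the tract. Rps15a, Rps21, Rps10 and the pseudogene Rpl32l also carry it and are not printed. RefSeq promoter entries on the GRCm38.p6 build were found for 58 of the 79 members, with 70 starts in all. A C at the annotated start followed by at least 4 bases that are each C or T was present at 14 of these 70 starts (20%), compared with 823 of 32851 starts of all genes (2.505%). Each of the following runs covers 10 bases before and 20 bases from the start, on the strand of the gene, and the capitals mark the C at the start and the unbroken run of C and T after it.
Rpl15 (chr14:18270967-18270996, minus strand): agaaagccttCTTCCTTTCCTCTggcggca
Rpl35 (chr2:39005112-39005141, minus strand): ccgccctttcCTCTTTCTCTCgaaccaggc
Rps6 (chr4:86857348-86857377, minus strand): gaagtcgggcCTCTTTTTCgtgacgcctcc
Rps18 (chr17:33955646-33955675, minus strand): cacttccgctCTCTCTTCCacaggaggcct
Rpl28 (chr7:4792955-4792984, plus strand): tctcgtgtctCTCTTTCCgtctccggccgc
Rpl35a (chr16:33056472-33056501, plus strand): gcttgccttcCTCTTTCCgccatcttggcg
Rpl38 (chr11:114668570-114668599, plus strand): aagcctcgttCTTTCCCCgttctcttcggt
Rps27 (chr3:90213629-90213658, minus strand): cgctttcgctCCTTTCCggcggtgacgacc
Rpl14 (chr9:120571507-120571536, plus strand): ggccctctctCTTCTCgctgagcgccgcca
Rplp2 (chr7:141447641-141447670, plus strand): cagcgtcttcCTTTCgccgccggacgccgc
The run was longest in Rpl15, with 13 bases, and shortest in Rplp2 and Rps21, with 5. When the C and the next 4 bases of C or T could lie anywhere within the 5 bases before and the 10 bases from the annotated start, 31 of the 70 starts (44.29%) had them, and 18.35% of all starts. A tract read from an annotation describes these letters and is not a measured start of transcription, and its absence at the other starts says only that the letters are not in that window.

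The cultures had the profile of differentiated muscle. All 10 myotube markers examined were found in every treatment, with Acta1, the skeletal muscle actin, between 2138 and 2548 CPM (counts over the library total after scaling by trimmed mean of M-values, TMM, in the usual per-million unit), and summed marker levels of 10400 to 14680 CPM. The 6 markers of undifferentiated or dividing myoblasts summed to 139 to 227 CPM. Their medians were 71.7 CPM for Top2a, 41.05 for Myod1, 35.6 for Mki67, 12.05 for Myf5, 6.94 for Ccnb1 and 1.49 for Pax7. Top2a and Mki67, markers of dividing cells, thus lay above the myotube markers Myh8 (26) and Actn2 (17.5). The sums hold different genes and do not give a proportion of cells. Markers of endothelium, leukocytes and neurons or Schwann cells summed to at most 2.62 CPM in any library, and those of liver to at most 10.8 CPM, in an agrin library. Total counts ran from 18424881 to 23343903 per library, and mitochondrially encoded genes took 27.9% to 39.1% of them.

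The 79 genes together held 2.95 ± 0.381% of the counts of a library (SD, n = 20), and 4.37 ± 0.455% of the counts outside mitochondrially encoded genes. By treatment the share was 3.03 ± 0.33% with bivalent 13-3B5 and 2.995 ± 0.407% in the control, and it was 3.10 ± 0.207%, 2.83 ± 0.651% and 2.79 ± 0.288% with agrin alone, with 13-3B5xb12 added and with 11-3F6xb12 added (SD, n = 4 each). The libraries of all treatments overlapped. The widest gap between means outside the treatment with the lowest library was that of agrin over agrin with 11-3F6xb12, larger than the SD of either, and the share was lower with 11-3F6xb12 at each of the 4 replicate numbers (2.60 against 2.86%, 2.50 against 3.02%, 3.12 against 3.14% and 2.94 against 3.36%). Mitochondrially encoded genes held more of the counts with 11-3F6xb12 at each number (39.15 against 34.4%, 39.01 against 33.53%, 32.15 against 27.92% and 31.83 against 28.71%). Outside them the members' share was higher with 11-3F6xb12 at number 3, at 4.59 against 4.36%. At numbers 1, 2 and 4 it was lower there (4.28 against 4.37%, 4.10 against 4.55% and 4.315 against 4.71%). Same-numbered libraries of this pair of treatments deviated together, with correlations of 0.16 to 0.32. No such values are given here for libraries of different numbers, so these do not show that the numbers pair. The lowest library was replicate 1 of agrin with 13-3B5xb12, at 1.94% (Wilson 95% interval 1.94 to 1.95), and the highest was replicate 3 of bivalent 13-3B5, at 3.42% (interval 3.41 to 3.43). Large-subunit genes made up 57.4 ± 0.411% of the members' counts, small-subunit genes 36.35 ± 0.396% and P stalk genes 6.24 ± 0.306% (SD, n = 20), so the balance between the subunits varied far less than the total. The intervals describe counting error within a library and hold no spread between libraries. They are too narrow even for counting error, because PCR copies of a molecule are counted as separate reads.

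**Figure D1:**
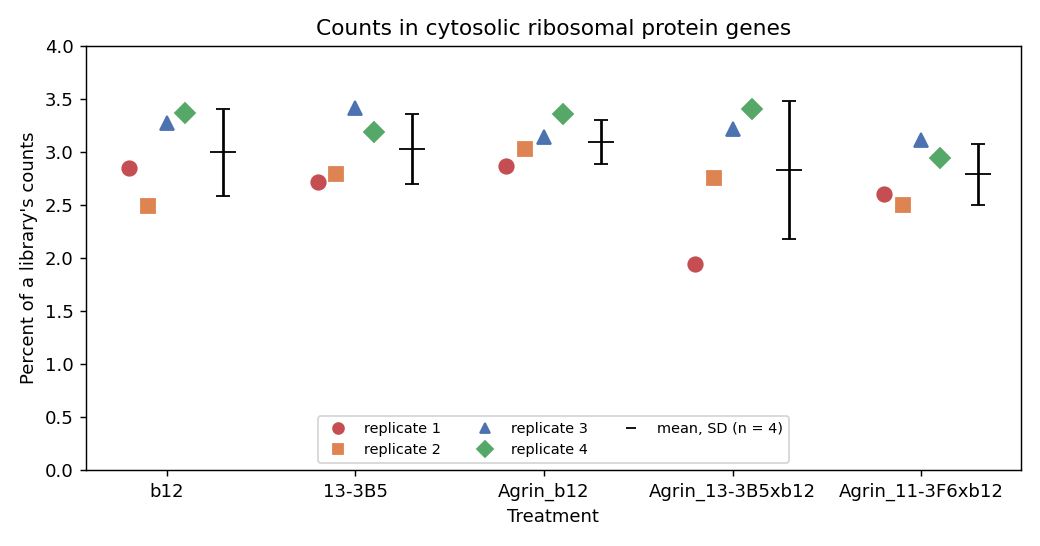
Percent of each library's counts in the 79 genes (vertical axis, from 0) by treatment, 1 point per library with colour and shape giving the replicate number, and the mean with its SD (n = 4) in black. Replicates 3 and 4 lie above replicates 1 and 2 in each of the 5 treatments, and replicate 1 of agrin with 13-3B5xb12 is lowest at 1.94%. Outside mitochondrially encoded genes (not drawn) this order did not hold with agrin, where replicate 3 (4.36%) was below replicates 1 (4.37%) and 2 (4.55%).

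Levels were compared between genes in TPM, that is, after division by the length of 1 annotated transcript and scaling to the same total in each library. On this per-length scale the members held 6.99% of the total on average. The highest was Rps12, a small-subunit protein, at 3264 ± 542 TPM (SD, n = 20), followed by Rpl41, the smallest ribosomal protein, at 2127 ± 390, Rpl8 at 1972 ± 279, Rpl9 at 1689 ± 165 and Rps4x, encoded on the X chromosome, at 1670 ± 209. Rpl9, Rps4x and Rpl32 (1667 ± 216) did not differ beyond their spread. The order rests on the length used. With all annotated exons of a gene merged, Rplp1 had rank 1 at 2149 TPM and Rps12 rank 10 at 1093, since the length of Rps12 then went from 494 to 2027 bases.

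At the other end stood members with few counts. Rpl24, a large-subunit protein, had a mean of only 14.35 counts per library (1.73 TPM), Rps10 had 97.5 counts (16.1 TPM) and Rps16 had 289.6 counts (21.3 TPM). These genes share sequence with others. Of the 100-base windows of the Rpl24 transcript, 80.1% were found letter for letter in annotated transcripts of 5 other genes, and 46.99% of its exon bases are covered by an exon of another gene on the same strand. For Rps10 the shared windows were 89.5%, for Rps16 33.9% and for Rpl13a, with 457.1 counts, 55.2%, and 35.38% of the exon bases of Rpl13a had a same-strand overlap. Rps27, with 98.37% of its windows shared, nevertheless had 1356 ± 230 TPM. The part of sharing in the low values was not tested. Over the 77 members annotated as protein coding, the median level was 917.1 TPM in the 35 with more than 50% of windows shared and 818.4 in the other 42. The values of such genes, and of the 201 ribosomal protein pseudogenes in the table, are uncertain, because how the authors treated reads with several matches is not given in the sources used here.

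A pair of the genes chosen by symbol, Rpl32l and Rpl6l, are annotated as processed pseudogenes, and they had means of 15.4 and 18.6 counts per library. The most abundant genes listed as pseudogenes were Rps2-ps10, with a mean of 4796 counts, and Rps18-ps6, with 1738. All pseudogene rows together held between 0.0446% and 0.0782% of a library's counts, far under the 1.94% to 3.42% of the members.

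Several ribosomal proteins have a second gene, and these paralogs were compared with their parents. Rpl3l is the paralog of Rpl3 known for its expression in adult skeletal muscle and heart. It had 0 to 11 counts per library and was above 3 counts in 3 of the 20 libraries, namely control replicate 2 with 11 counts, control replicate 3 with 6 and bivalent 13-3B5 replicate 3 with 4. Rpl3 itself had 628 ± 40.5 CPM (SD, n = 20), so these myotubes carried the message of the general form and little of the muscle form at this depth. Rps27l, a paralog of Rps27 known as a p53 target, stood at 293 ± 48.3 TPM and Rps27 at 1356 ± 230. Rpl22l1, the paralog of Rpl22, had 44.1 ± 5.06 CPM and Rpl22 had 262 ± 31. Rpl7l1 had 121 ± 7.86 CPM and Rpl7 1079 ± 95.8. Rpl36al had 0.884 ± 0.474 CPM and Rpl36a 214 ± 31.6 (SD, n = 20 for each), and CPM does not correct for length. The symbol rule would have matched Rpl10l, Rpl39l and Rps4l, but no row of the count table carries these symbols.

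The P stalk recruits the elongation factors to the ribosome, and its genes are Rplp0, Rplp1 and Rplp2. Rplp0 had 1226, 1002, 1204 and 1343 CPM in control replicates 1 to 4, 1163, 1159, 1270 and 1227 with bivalent 13-3B5, and 1139, 1262, 1152 and 1261 with agrin. It had 994, 1113, 1226 and 1292 CPM where 13-3B5xb12 was added to agrin and 1204, 1099, 1252 and 1166 where 11-3F6xb12 was. The treatments overlapped throughout, and the lowest values came from replicate 1 of agrin with 13-3B5xb12 and control replicate 2. The same libraries were lowest for Rplp1, at 269.8 and 337.3 CPM against 395.8 to 523 in the other 18 libraries. Rplp2 behaved differently, with 217.9 CPM in that replicate 1 library, inside the 172.8 to 233.5 of the others and above the 171.2 of control replicate 2.

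The 2 libraries were described next, because nearly every member was low in them. In each library the deviation of 11073 other genes from their mean over 20 libraries was regressed on log2 transcript length, which gave slopes of 0.136 in agrin with 13-3B5xb12 replicate 1 and 0.11 in control replicate 2, and of -0.0552 to 0.0483 in the other 18. Long transcripts were thus relatively high and short ones relatively low in both, and the members have a median transcript length of 681 bases compared with 2597 over the genes tested. In agrin with 13-3B5xb12 replicate 1, 75 of 78 members lay below the mean of the other 3 replicates of the treatment, with a median log2 difference of -0.68. In control replicate 2, 75 of 78 lay below, with a median of -0.41. The mitochondrial ribosomal protein genes, also short, had median deviations of -0.28 and -0.19 in the same libraries, and the members -0.63 and -0.30.

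Within the first of these libraries the medians were graded by length. The median log2 difference was -0.84 in the 19 members with transcripts under 500 bases, -0.66 in the 43 of 500 bases or more and under 1000 and -0.57 in the 16 of 1000 bases or more. Over the 78 members, which share the library, Spearman's rho between the difference and length was 0.39 and Pearson's r on log2 length was 0.19. Rpl39, a short protein of the exit tunnel, was lowest, with 54.4 CPM in this library and 185, 206 and 232 CPM in replicates 2 to 4 of the treatment. Rpl41 had 188 CPM there against 459, 530 and 571, and Rpl35 had 145 against 343, 383 and 397. These values do not overlap with any of the other 19 libraries, where Rpl39 had at least 160.4 CPM, Rpl41 at least 431.5 and Rpl35 at least 259.8. Length did not order single members closely. Rps20, with the longest transcript at 3706 bases, was at -0.69, Rps24 with 1613 bases at -0.82 and Rpl4 with 1538 bases at -0.26, while Rps28, the shortest at 271 bases, was at -0.33. Control replicate 2 was more even, with medians of -0.42, -0.44 and -0.37 in the same 3 classes of length and a rho of 0.18.

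**Figure D2:**
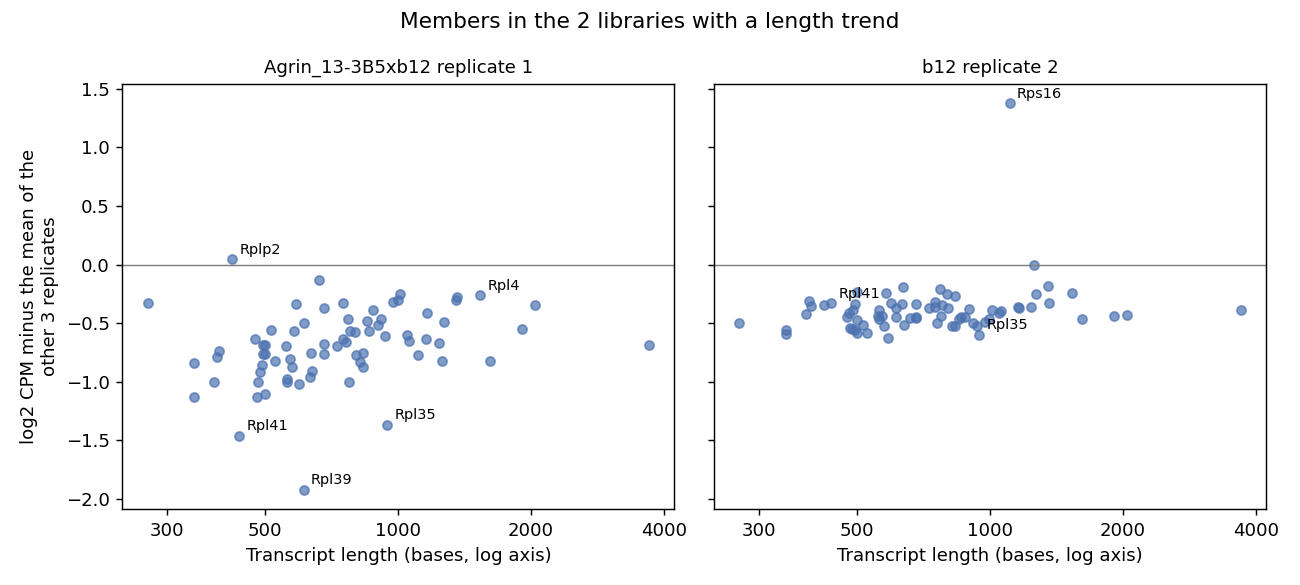
Each point is a member with a mean of at least 100 counts, at its transcript length in bases (log axis) and its log2 CPM in 1 library minus the mean of the other 3 replicates of that treatment. In agrin with 13-3B5xb12 replicate 1 (left) Rpl39, Rpl41 and Rpl35 lie lowest and Rplp2 near 0, and in control replicate 2 (right) most members lie between -0.6 and -0.2 with Rps16 high at 1.38.

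No member changed with agrin at the threshold used. Of the 79 genes, 78 passed the filter on low counts and were tested in a fit over 14605 genes, and Rpl3l did not pass. In agrin against the control 0 of the 78 had an adjusted p under 0.05 in edgeR's quasi-likelihood test, 0 had an unadjusted p under 0.05, and DESeq2's Wald test also called 0. The background was the same, with 0 of the 14605 genes (0%) called. The median log2 fold change of the members was 0.038, with 66 of 78 above 0 (all genes 0.000384). Without the 2 libraries it was -0.053 with 12 of 78 above 0, and -0.023 when a length trend was added to the offsets, so the sign of the median turned with the removal of control replicate 2. Among the 74 members with a mean of at least 100 counts the fold changes ran from -0.11 (SE 0.49) for Rps16 to 0.18 (SE 0.15) for Rpl13a. Rpl13a, a large-subunit protein that also hosts several small nucleolar RNAs, had 22.6, 16.3, 21.9 and 21 CPM in the control and 21.4, 25.7, 24.6 and 21 with agrin, and the groups overlapped. Without control replicate 2 its fold change was 0.08.

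Bivalent 13-3B5, which activates MuSK without agrin, was compared next. Against the control 0 of 78 members were called (background 0%), 0 had an unadjusted p under 0.05, and 70 of 78 lay above 0 with a median of 0.048, which became -0.046 without the 2 libraries. With the replicate block added as well the median was -0.031. The 3 smallest p-values were those of Rpl24 (0.77, SE 0.64), which rests on 3 to 35 counts per library, Rpl29 (0.16, SE 0.14) and Rpl9 (0.10, SE 0.09), with adjusted p of 0.999 in edgeR. Without control replicate 2 Rpl29 was 0.09 and Rpl9 0.02, without control replicate 4 they were 0.27 and 0.17, and Rpl24 was 0.17 without bivalent 13-3B5 replicate 4. Bivalent 13-3B5 against agrin, which holds neither of the 2 libraries, had a median of 0.0099 and 45 of 78 members above 0, with 0 called and 0 at an unadjusted p under 0.05. The largest values there were those of Rpl6l (0.55, SE 0.51) and Rps10 (-0.20, SE 0.25), both low in counts, and Rplp2 had -0.07 (SE 0.08). DESeq2 called 0 members in both comparisons.

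The monovalent antibodies were tested on agrin-treated cells, and the member median farthest from 0 turned on 1 library. Agrin with 13-3B5xb12 against agrin had a median of -0.141, with 70 of 78 members below 0, and 0 were called (background 0%) by edgeR or DESeq2, with 0 at an unadjusted p under 0.05. Without the 2 libraries the median was 0.0048, with 35 of 78 below 0. With the replicate block added as well it was -0.013, with 45 of 78 below 0. The smallest p-values belonged to Rpl13a (-0.28, SE 0.15), Rpl12, a protein at the base of the P stalk (-0.19, SE 0.11), and Rpl6 (-0.14, SE 0.09). Their values without the 2 libraries were -0.14, -0.05 and -0.03. Matched by replicate number, the median member difference from agrin was -0.61 at number 1, -0.17 at number 2, 0.08 at number 3 and 0.03 at number 4. Without the 2 libraries 0 members had an unadjusted p under 0.05, with or without the replicate block. With all libraries and no filter on low counts 19 members had one, 1 of them higher, where 1468 of 26190 genes did.

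Agrin with 11-3F6xb12 against agrin had a median of -0.052, with 63 of 78 members below 0, and the same median without the 2 libraries, neither of which belongs to these groups. No member was called (0 of 78, background 0%), 0 had an unadjusted p under 0.05 and DESeq2 called 0. Without the 2 libraries 6 members had an unadjusted p under 0.05, all lower, where 713 of 14876 genes (4.79%) had one, and with the replicate block added 12 members, 10 of them lower, and 1146 genes (7.7%). The smallest p-values were those of Rplp2 (-0.16, SE 0.08), Rpl9 (-0.15, SE 0.09) and Rpl13a (-0.24, SE 0.15). Rplp2 had 183, 173, 202 and 199.6 CPM with agrin and 11-3F6xb12 and 212, 200.3, 207 and 229 with agrin, so it was lower at each of the 4 replicate numbers while the groups overlapped slightly. By number the median of all members was -0.02, -0.15, 0.07 and -0.13.

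Against the control, agrin with 13-3B5xb12 had a median of -0.086 and agrin with 11-3F6xb12 one of -0.013, with 0 of 78 members called in both (background 0% in both), 0 at an unadjusted p under 0.05 in both and 0 called by DESeq2. Without the 2 libraries the medians were -0.042 and -0.112, and 16 members in the second comparison then had an unadjusted p under 0.05, all lower, where 557 of 14876 genes (3.74%) had one. With the replicate block added the medians were -0.042 and -0.088. In the second comparison 27 members, 25 of them lower, and 834 genes (5.61%) then had such a p. The smallest adjusted p of a member in edgeR was 1.00 without the block and 0.347 with it. The smallest p-values were those of Rpl21 (-0.16, SE 0.11), Rpl6 (-0.13, SE 0.09) and Rpl10 (-0.14, SE 0.10) in the first, which were -0.04, -0.02 and -0.02 without agrin with 13-3B5xb12 replicate 1. They were those of Rpl24 (1.00, SE 0.64), Rplp2 (-0.12, SE 0.08) and Rps26 (0.24, SE 0.17) in the second, where Rplp2 was -0.20 and Rps26 0.14 without control replicate 2, and Rpl24 was 0.57 without agrin with 11-3F6xb12 replicate 1. Rplp2 there was -0.07 without control replicate 4. Between the monovalent antibodies the median was 0.07 with 11-3F6xb12 over 13-3B5xb12. It was -0.073 without the 2 libraries and -0.052 with the replicate block added as well. Again 0 members were called (background 0%), with 1 at an unadjusted p under 0.05 in edgeR and in DESeq2. That member was Rplp2, at -0.17 (SE 0.08, adjusted p 0.992 in edgeR), beside Rpl10 at 0.16 (SE 0.10) and Rpl15 at 0.20 (SE 0.13), which were 0.03 and 0.05 without agrin with 13-3B5xb12 replicate 1. Agrin with 13-3B5xb12 against the control had 0 members at an unadjusted p under 0.05 without the 2 libraries. With the replicate block added it had 2, both higher. With the block and a length trend in the offsets over all libraries it had 10, 0 of them higher, where 577 of 14605 genes had one. Agrin with 11-3F6xb12 against the control then had 8, 1 of them higher, and 765 genes. These comparisons share their control and agrin libraries and are not independent of each other.

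**Figure D3:**
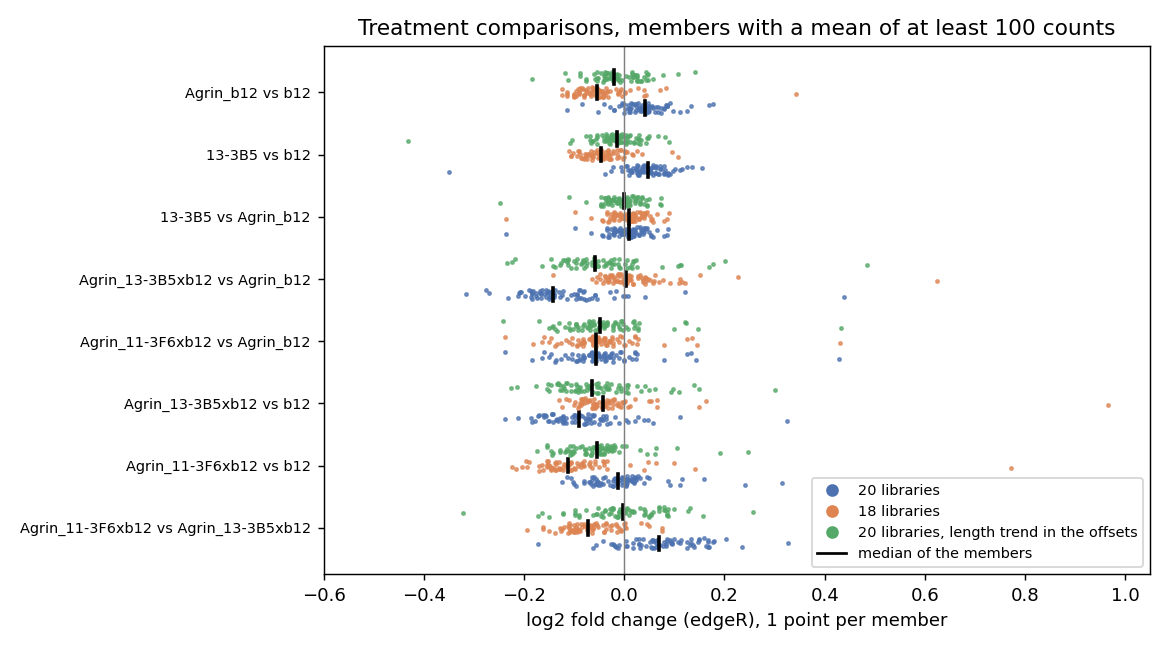
Log2 fold changes of the 74 members with a mean of at least 100 counts in the 8 treatment comparisons, 1 point per member, from all 20 libraries (blue), from 18 libraries without the 2 length-dependent ones (orange) and with a length trend in the offsets (green), with the median as a black bar. The medians lie between -0.15 and 0.1 throughout, and those of 4 comparisons with a length-dependent library change sign when both are left out.

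In a single test of all treatments at once, 0 of 78 members and 0 of 14605 genes (0%) were called, with 0 members at an unadjusted p under 0.05. Without the filter on low counts 1 member was called, Rps16, with an adjusted p of 0.0166 in edgeR, where 50 of 26190 genes (0.191%) were called. Rps16 had 121 to 682 counts per library and the largest spread of the members with at least 100 counts, a within-treatment SD of 0.69 on the log2 scale. Its CPM were 5.77, 22.7, 13.1 and 8.55 in the control, 7.64, 5.74, 10.9 and 14.99 with bivalent 13-3B5 and 10.9, 9.15, 10.3 and 15.99 with agrin. They were 9.27, 8.12, 27 and 18.2 where 13-3B5xb12 was added to agrin and 8.79, 14.6, 10.3 and 28.5 where 11-3F6xb12 was. Single libraries of 3 treatments were high, and the treatments overlapped.

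The precision of these comparisons was set by the same libraries. The median standard error of a member's log2 fold change was 0.127 with all 20 libraries and 0.069 to 0.0797 in the 8 comparisons without the 2. That no member passed the threshold does not show that the treatments act alike on these genes.

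**Figure D4:**
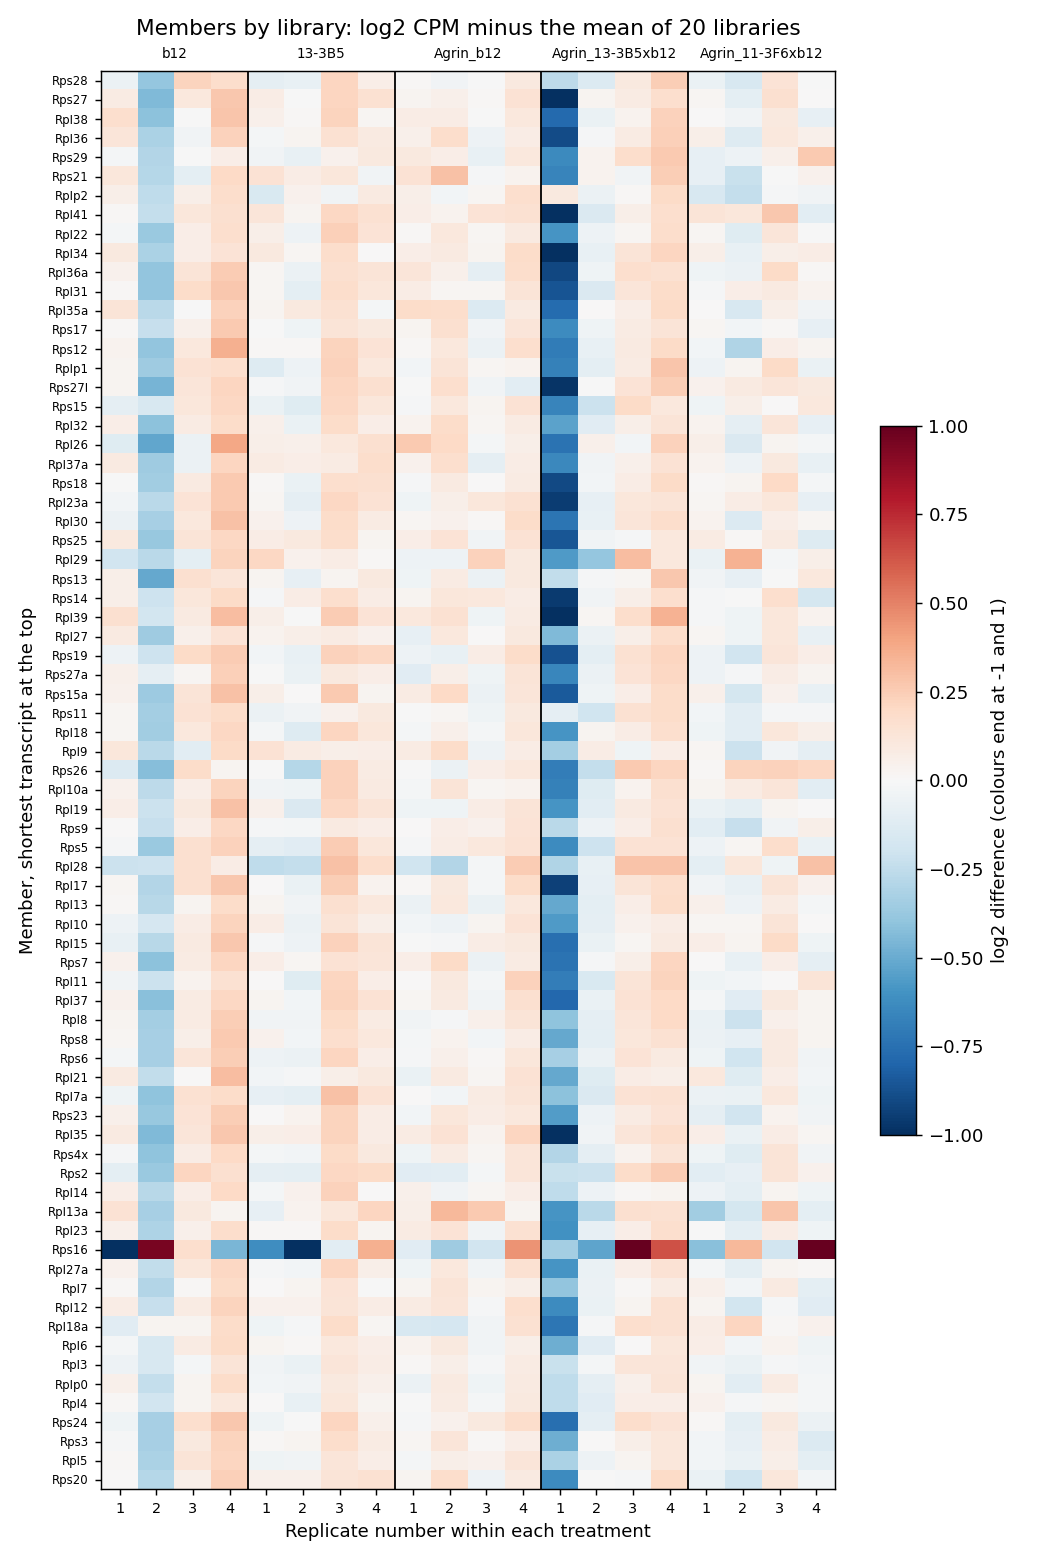
Log2 CPM of the 74 members with a mean of at least 100 counts minus each member's mean over the 20 libraries, members in rows with the shortest transcript at the top and libraries in columns grouped by treatment, blue below and red above the mean. The dark column is replicate 1 of agrin with 13-3B5xb12, the paler one control replicate 2, and Rps16 is the row with the largest spread.

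The members moved together across libraries whatever the treatment. After the treatment mean was subtracted, the median Pearson's r over pairs of the 74 members was 0.88 over 20 libraries and 0.68 over the 18 libraries without the 2 length-dependent ones. Pairs within the large subunit (0.90 and 0.68), within the small subunit (0.86 and 0.68) and between them (0.88 and 0.68) were alike. With 76 mitochondrial ribosomal protein genes the median was 0.44, and 0.093 over 18 libraries, and among the mitochondrial genes themselves it was 0.31 and 0.10. All these pairs share libraries, depth and scaling, and the mitochondrial genes have lower counts. The smallest within-treatment SDs were those of Rpl4 (0.10 on the log2 scale), Rpl3 (0.10) and Rplp2 (0.12), and the largest after Rps16 those of Rpl39 (0.45) and Rpl41 (0.35). Without the 2 libraries those of Rpl39 and Rpl41 both fell to 0.11.

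Of 9845 other genes with a mean of at least 100 counts, the 5 whose treatment-centred values were most like the members' mean over 20 libraries were Hspe1 (r 0.97), a mitochondrial co-chaperonin, Sec61g (0.97), a subunit of the translocon, Fau (0.96), whose product includes the small-subunit protein eS30, Myl6 (0.96), a myosin light chain, and Eef1b2 (0.95), an elongation factor subunit. Over the 18 libraries their r was 0.85, 0.84, 0.84, 0.81 and 0.86, and other genes led, with Rpsa, the small-subunit protein uS2, at 0.97 and Rack1, a scaffold protein of the small subunit, at 0.93. Neither Fau, Rpsa nor Rack1 was matched by the symbol rule.

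The replicate number, the only other label of the libraries, went with a difference of nearly all members in 1 direction. The labels do not say what a number stands for. The members' share of counts was 2.6 ± 0.379% in the libraries of number 1, 2.71 ± 0.224% in number 2, 3.23 ± 0.121% in number 3 and 3.25 ± 0.193% in number 4 (SD, n = 5 each). In a fit with treatment and replicate number, 11 of 78 members were called for number in edgeR, where 1050 of 14605 genes (7.19%) were. That count of members was 5 to 24 with single libraries left out, and 24 without agrin with 13-3B5xb12 replicate 1. Replicates 3 and 4 were then set against 1 and 2, a contrast chosen because earlier results of these data had shown these numbers apart, so it describes them and is no independent evidence. The fit takes the 5 libraries of a number as independent. The SE and p-values of this contrast therefore measure spread between libraries and not between replicate numbers. There 25 of 78 members were called higher and 0 lower, where 838 of 14605 genes (5.74%) were called higher, and 77 of 78 lay above 0. The median log2 fold change was 0.187 over the members and 0.0071 over all genes. By role the calls were 11 of 45 large-subunit, 13 of 30 small-subunit and 1 of 3 P stalk genes, with medians of 0.18, 0.20 and 0.13.

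Rps2, a small-subunit protein at the entry of the messenger RNA, was the clearest. It had 348, 289, 434 and 418 CPM in control replicates 1 to 4, 352, 349.7, 429.8 and 426 with bivalent 13-3B5 and 345, 347.5, 369 and 407 with agrin. It had 319, 321, 425 and 446 CPM where 13-3B5xb12 was added to agrin and 348, 352.5, 408 and 385 where 11-3F6xb12 was. All 10 libraries of replicates 3 and 4 lay above all 10 of replicates 1 and 2, at 415 ± 23.4 and 337 ± 20.9 CPM (SD, n = 10 each), which gave 0.30 on the log2 scale (SE 0.04, adjusted p 6.28e-06 in edgeR) and 0.26 (SE 0.03) without the 2 libraries. Of the windows of Rps2, 64.74% were shared with 36 other genes. The pseudogene row Rps2-ps10 was also called higher, at 238 ± 16.4 against 199 ± 16.0 CPM (0.26, SE 0.05, adjusted p 0.000124 in edgeR). The part of shared reads in these values was not tested. Rps19, a small-subunit protein known from Diamond-Blackfan anaemia, was the only other member without overlap, at 234 ± 10.5 against 187 ± 27.1 CPM (0.33, SE 0.07, adjusted p 0.00574). Such separation upwards was seen in 79 of 14605 genes (0.541%).

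Rpl28, one of the members with a tract at the annotated start, had 62.9 ± 5.63 CPM in replicates 3 and 4 and 49.3 ± 4.57 in replicates 1 and 2 (0.35, SE 0.06, adjusted p 2.65e-05). Rpl7a followed at 721 ± 41.9 against 601 ± 58.4 CPM (0.26, SE 0.05, adjusted p 0.000295), then Rps28 at 219 ± 13.7 against 185 ± 14.55 CPM (0.25, SE 0.05, adjusted p 0.000378; SD, n = 10 each). Not all members took part to the same degree. Rpl9 had 647 ± 42.6 against 639 ± 78.9 CPM (0.02, SE 0.06) and the pseudogene Rpl32l was the 1 tested row below 0 (-0.32), on 5 to 32 counts per library. Within treatments, the members' median difference of replicates 3 and 4 from 1 and 2 was 0.018 with agrin, 0.13 with bivalent 13-3B5 and 0.29 in the control. Above 0 were 44 of 78 members with agrin and 74 in each of the other groups just named. The median difference was 0.46 (76 of 78 above 0) and 0.072 (67 of 78) when 13-3B5xb12 or 11-3F6xb12 was added to agrin. With the length-dependent library left out, it was 0.14 in the control and 0.18 for 13-3B5xb12 on agrin. Whether the difference varies with treatment was not tested.

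Both length-dependent libraries belong to replicates 1 and 2, so the contrast was repeated without them. The median of the members fell to 0.106, with 73 of 78 above 0, while 37 members were called higher and 0 lower, where 1236 genes (8.31%) were called higher. With a length trend in the offsets 64 members were called higher, where 1148 genes (7.86%) were, with a median of 0.192. Of the 25 members called with all libraries, 24 were called without the 2 libraries and 24 with the length trend, and 23 under both. Rpl13a was lost in the first, at 0.16 (SE 0.08) compared with 0.24 (SE 0.08), and Rplp2 in the second, at 0.12 (SE 0.07) compared with 0.13 (SE 0.04). Other measures also moved with the replicate numbers. Mitochondrially encoded genes held 35.1 ± 2.7% of counts in replicates 1 and 2 and 30.3 ± 1.58% in replicates 3 and 4, and outside them the members' share was 4.1 ± 0.469% and 4.65 ± 0.213% (SD, n = 10 each), or 4.3 ± 0.138% in the 8 libraries of replicates 1 and 2 without the 2. The median summed level of the 6 myoblast markers was 185 CPM (155 to 227) in replicates 1 and 2 and 152 CPM (139 to 220) in replicates 3 and 4, and that of the 10 myotube markers was 13240 CPM (12700 to 14680) and 11790 CPM (10400 to 13580). The part of these in the result was not tested.

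**Figure D5:**
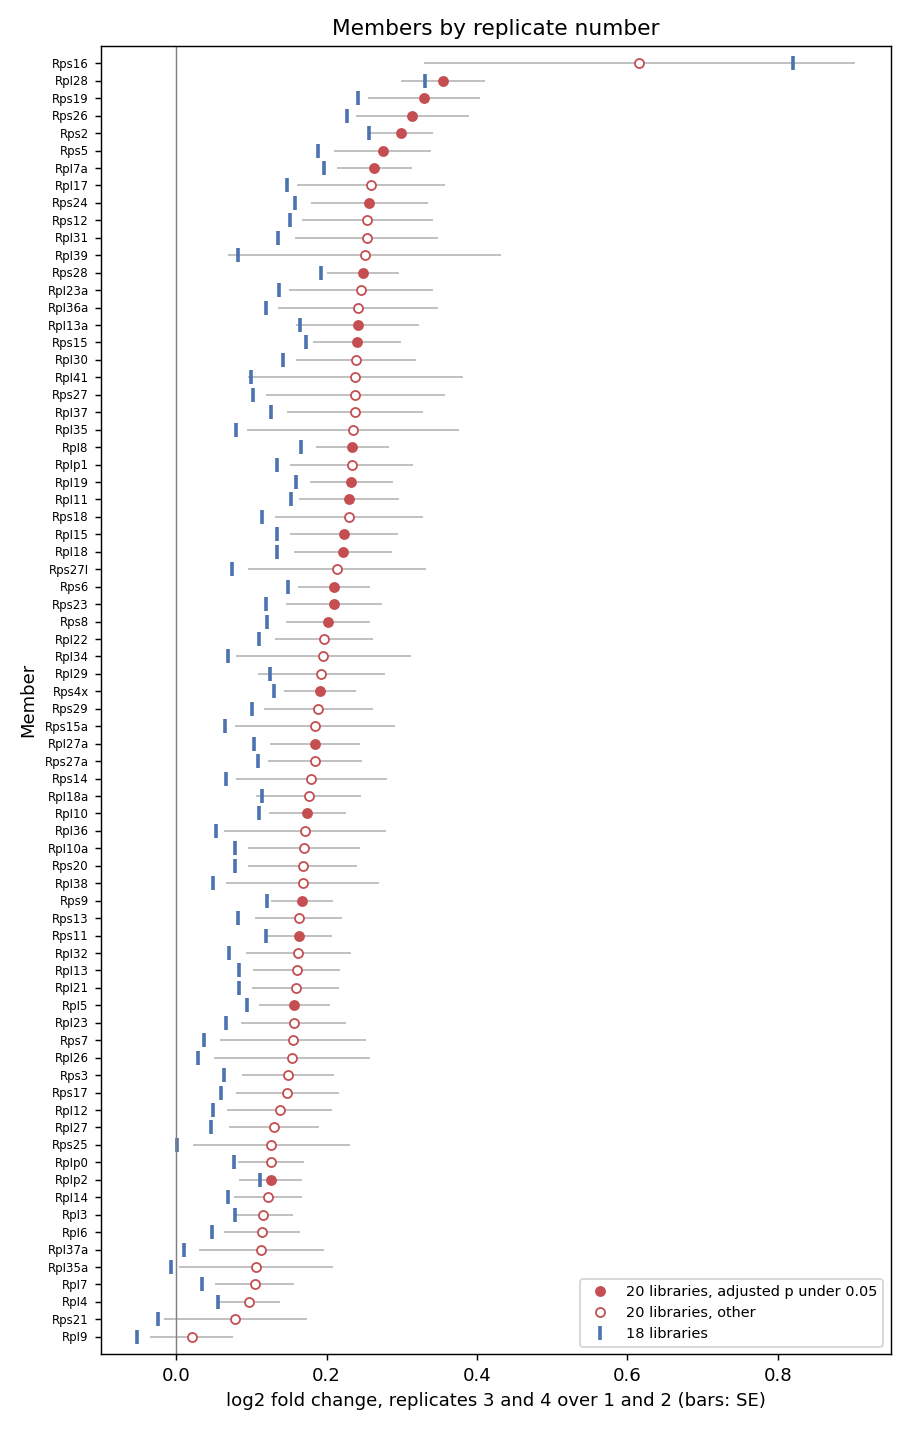
Log2 fold change of replicates 3 and 4 over 1 and 2 for the 74 members with a mean of at least 100 counts, with its SE as a grey bar, filled where the adjusted p is under 0.05 and open otherwise, and the value without the 2 length-dependent libraries as a blue tick. Each member lies above 0 with 20 libraries, and without the 2 libraries the value is lower for all but Rps16.

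Genes that work with the ribosome were counted in the same contrast from lists chosen by function. Over all 14605 genes 838 (5.74%) were called higher and 1012 (6.93%) lower. Of 32 ribosome assembly factors, 11 were called higher and 0 lower, with a median of 0.15. Among them Bop1, needed for the large subunit, rose from 94 ± 3.88 to 108 ± 7.1 CPM (0.20, SE 0.04, adjusted p 0.000575) and Nolc1, a nucleolar phosphoprotein, from 27.7 ± 3.47 to 34.1 ± 3.11 CPM (0.30, SE 0.07, adjusted p 0.00192; SD, n = 10 each). Of 15 tested translation factors and other messages known for a TOP tract, 8 were called higher and 1 lower. Eef1g, an elongation factor subunit, had 229 ± 15.8 and 267 ± 11.6 CPM (0.22, SE 0.04, adjusted p 0.000137), and Tpt1, itself a TOP message, was the 1 lower, at 729 ± 37.4 and 670 ± 32.3 CPM (-0.12, SE 0.04, adjusted p 0.0246). Gas5 and Zfas1, non-coding TOP genes that host small nucleolar RNAs, were the 2 of 9 host genes called, both higher. RNA polymerase I genes had 2 of 12 called, both higher, namely Polr1a and Rrn3.

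Of 14 regulators of ribosome production, Mxd1, a partner of MAX that opposes MYC, was the 1 called with all libraries, and 3 others were called higher without the 2. It was lower, with 28.2 ± 3.16 CPM in replicates 1 and 2 and 16.5 ± 2.21 in replicates 3 and 4 (-0.78, SE 0.07, adjusted p 1.41e-09; SD, n = 10 each). Of 77 mitochondrial ribosomal protein genes 1 was called higher, Mrps18b, and 0 lower, with a median of 0.025 with all libraries. Without the 2 libraries 0 were called higher and 8 lower, with a median of -0.036, where 1370 of 14876 genes (9.21%) were called lower. The lists were not compared with each other by a test. In the 8 treatment comparisons and in the test of all treatments 0 genes of any of these lists were called, as for the table as a whole.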

How the data were processed

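Per the labels' protocols, stranded total RNA libraries (TruSeq, ribosomal RNA removed with Ribo-Zero) were sequenced as pairs of 150 bases on a NovaSeq. The authors' deposited table holds raw counts per gene. Per the submitters' processing notes, Trim Galore 0.6.6, cutadapt 2.10, STAR 2.7.6a, HTSeq 0.12.4, DESeq2 1.32.0 and the GRCm38 build were used. How HTSeq treated strand and reads with several matches is not given in the sources used here.

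Members, gene lists and the contrast of replicate numbers were chosen with earlier results of these data known. Counts were fitted in R 4.3.3 with edgeR 4.0.16 (filterByExpr with a minimum count of 10 and a total of 15, TMM, robust quasi-likelihood F-test, two-sided, 15 residual degrees of freedom in the fit of treatment alone over 20 libraries, Benjamini-Hochberg adjustment over 14605 genes, threshold 0.05). Fits with replicate number or with fewer libraries left fewer residual degrees of freedom. Without the 2 length-dependent libraries the adjustment was over 14876 genes. The standard error is the absolute log2 fold change over the square root of F. Log2 CPM used a prior count of 2. DESeq2 1.42.0 was an alternative, beside the replicate block, removal of both length-dependent libraries or of each library, a length trend (natural spline, 3 degrees of freedom) in the offsets, other scalings and filters, and fits of only the treatments compared. Lengths and shared windows came from GENCODE M21, which holds 26667 of the 26722 gene IDs. The fits were also run on simulated data, with outcomes not given here. Genes were drawn independently there and the planted length trend was steeper than observed, so those runs do not test the results above. Between replicates the chi-square per gene was at least 5.17, so no library was counted as a duplicate.

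Named were the 5 highest and 5 lowest members per length, the 3 smallest p-values per comparison, paralogs, P stalk genes, the 3 largest and 3 smallest spreads, the 5 most similar genes and list genes called. Others were chosen after their values were seen.

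Same-numbered libraries deviated together, with every correlation over 0.1, in 5 of 10 pairs of treatments (11149 genes). Libraries of different numbers were not set beside them, so this does not show that the numbers pair. The numbers come from the titles.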

Additional observations from a re-analysis of the deposited data

Results flagged for a closer look

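For 80 groups of 4 values, the distance of the highest or lowest library from the next was divided by the range. The level of Rps27, a small-subunit protein, in replicate 1 of agrin with 13-3B5xb12 stood apart, at 125.2 CPM compared with 263, 273 and 290 CPM in replicates 2 to 4, a gap of 0.838 of the range, above Dixon's critical value for 4 samples. Chance gives about 1 such case in 20 independent groups. The 80 groups share libraries, so that rate does not apply to them and no conclusion is drawn from it. The flagged library is the one with the steepest length trend, where 75 of 78 members lay below the mean of the other replicates. The Rps27 transcript has 345 bases. The part of length in this value was not tested.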

How the results depend on the processing

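The count of members called stayed at 0 in the 8 treatment comparisons under all alternatives, with the replicate block among them (0 members in each comparison, also with both length-dependent libraries left out or the length trend added), so the block changed no call of a member. With all treatments at once it was 1 without the filter on low counts (Rps16) and 0 otherwise. Members called for replicate number (11) were 17 in DESeq2's likelihood ratio test, 51 with the length trend, 53 without the filter and 24 without both libraries, and 5 to 24 with each library left out, 24 without agrin with 13-3B5xb12 replicate 1 and 5 to 7 without any replicate of bivalent 13-3B5, control replicate 3 or 4, agrin replicate 1 or 4, agrin with 11-3F6xb12 replicate 3, or agrin with 13-3B5xb12 replicate 3 or 4. Members called higher in replicates 3 and 4 (25) were 64 with the length trend, 63 without the filter and 17 to 36 with each library left out, 17 without agrin with 13-3B5xb12 replicate 4. The members' median log2 fold changes moved by less than 1 SD between libraries (0.197). This SD includes the 2 length-dependent libraries and exceeds the size of all 8 treatment medians, so that bound does not show stable medians. With single libraries left out they crossed 0 in 7 of the 8 comparisons: agrin against control -0.053 to 0.110, bivalent 13-3B5 against control -0.046 to 0.114 and against agrin -0.032 to 0.037, agrin with 13-3B5xb12 against agrin -0.224 to 0.005 and against control -0.186 to 0.046, agrin with 11-3F6xb12 against control -0.112 to 0.060, against agrin -0.086 to -0.028 and against agrin with 13-3B5xb12 -0.073 to 0.161. In replicates 3 and 4 against 1 and 2 they were 0.129 to 0.211. Over all genes, calls rose from 0 to between 2 and 27 per treatment comparison (50 over all treatments) without the filter, to 2, 3 and 5 with the block in the comparisons of agrin with 11-3F6xb12 (against agrin, control and 13-3B5xb12), to 3, 3 and 11 with block and length trend, to 17, 5 and 16 with the block and without both libraries (1 each for the comparisons of 13-3B5xb12 on agrin with agrin and with control), and to 2 in DESeq2 between the monovalent antibodies. For replicate number 1050 genes became 1762 without both libraries. The cause of these changes was not tested. Depth limits Rpl3l, Rpl24, Rpl32l and Rpl6l, which had at most 37 counts in any library.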
